A study of Mus musculus with 12 samples.

Results

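The genes described here are 10 genes of the immediate early response. They comprise the zinc finger transcription factors Egr1, Egr2 and Egr3, the orphan nuclear receptors Nr4a1, Nr4a2 and Nr4a3, the immediate early response genes Ier2, Ier3 and Ier5, and Srf, which encodes serum response factor. All probes whose gene symbol was one of these names were taken, irrespective of their values. The array carried 14 such probes among 45281. The normalized table of 21004 probes, which stand for 15434 symbols, held 7 of them for 6 genes (Egr1, Egr2, Egr3 with 2 probes, Nr4a2, Ier3 and Srf). The other 7 probes, among them every probe for Nr4a1, Nr4a3, Ier2 and Ier5, had only a signal without normalization.

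RNA of hip cartilage from C57BL6 mice aged 4 to 6 weeks was measured on 12 Illumina BeadChips, 3 for each of 4 groups. Mice were wild type (WT) or lacked Mapk9, which encodes the stress-activated kinase JNK2 (KO). Cartilage was injured by tearing the femoral epiphysis from the hip, and was then either frozen at once (control) or kept in serum-free medium for 4 h (injured), so an effect of injury and an effect of culture cannot be told apart. The study's methods describe a replicate as the pooled hips of 3 mice without naming a genotype, and the labels do not say which part of Mapk9 was deleted.

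Immediate early genes are transcribed within minutes of a stimulus without new protein synthesis, and most of their transcripts are short-lived. Kinase cascades such as ERK phosphorylate ternary complex factors that sit with SRF on CArG boxes, while CREB and NF-kB act on other promoter elements of the same genes. The EGR and NR4A proteins then act as transcription factors on later genes. In cartilage, early genes are known to respond to mechanical load and to release of growth factors from the matrix.

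Between 16930 and 18969 probes were detected per array, which here means a deposited detection p-value under 0.05. Array medians lay between 7.55 and 7.70 on the log2 scale, and correlations between arrays lay between 0.868 and 0.986. The brighter Mapk9 probe was lower in KO by 1.57 (log2) in the controls, with a limma adjusted p of 0.0151, and by the same log2 difference in the injured groups, with an adjusted p of 0.00485. It was still detected on all KO arrays, at levels from 8.69 to 9.28, while the dimmer Mapk9 probe was detected on none of the KO arrays and was at least 1.92-fold higher in WT than in KO controls. Between the injured groups the dimmer probe, detected on 1 of 3 WT arrays there, allowed no bound. All 9 chondrocyte markers in the table, among them Col2a1 and Sox9, were detected on all 12 arrays. So were 8 of 10 skeletal muscle markers and 5 of 5 erythroid markers.

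Egr1, Egr2 and Ier3 were upregulated post injury in both genotypes. In WT, Ier3 rose 11.3-fold, Egr2 3.66-fold and Egr1 2.28-fold. In Mapk9 KO, the same genes rose 17.2-fold, 4.86-fold and 3.19-fold. The brighter Egr3 probe was 1.66-fold and 1.72-fold higher, which is under the 2-fold limit of a call. Srf, which acts upstream of several of these genes, did not pass the test in either genotype. A probe was called where its fold change was above 2 and its adjusted p under 0.05. By this rule 3 of the 6 genes in the normalized table were called higher and 0 lower in WT, where 8.35% of all genes were called higher and 8.24% lower. The WT count was 2 where the Egr1 call was lost, under the 4 alternatives given below for Egr1. In Mapk9 KO, the same count of 3 higher and 0 lower stood beside 10.6% and 10.4% of all genes. The median log2 fold change of the 7 probes was 0.73 in WT and 0.85 in Mapk9 KO, against -0.02 over all probes in each genotype.

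Markers of other cell types moved between the same groups. A marker was counted as called where any of its probes was called. Over all genes, 8.35% were called higher and 8.24% lower in WT, and 10.6% and 10.4% in KO. The mean log2 level of the 10 muscle markers lay between 11.3 and 12.7 on WT control arrays and between 8.24 and 10.4 on WT injured arrays, and 9 of the 10 were called lower. In Mapk9 KO it lay between 12.8 and 13.1 in controls and between 8.75 and 10.1 post injury, and all 10 were called lower. The chondrocyte markers had a mean level from 10.7 to 11.3 in WT controls and from 12.3 to 12.6 post injury. Of these 9 genes, 6 were called higher, and Col11a1 was called lower at 1 of its 3 probes. In KO their mean level went from between 10.6 and 11.3 to between 12.3 and 12.6, with 7 genes called higher and 0 lower. Of 6 neutrophil markers, 3 were called higher in each genotype, but at the brightest probe only Ngp was. The median log2 fold change over their brightest probes was 0.60 in WT and 0.08 in KO. Of 5 macrophage markers, 2 were called higher (Lyzs and Cd14) in each genotype, while 2 were called lower in WT and 3 in KO, among them Csf1r. Lyzs was not called at its brightest probe, with log2 fold changes of 0.95 in WT and 0.96 in KO. Markers called lower in WT and in KO, in that order, numbered 2 and 3 of 4 for osteoclasts, 2 and 3 of 5 for osteoblasts, 2 and 2 of 3 for fibroblasts and 1 and 2 of 3 for adipocytes, with 0 called higher. Of 5 endothelial markers, Cdh5 was called higher in WT and 0 in KO, and 0 of 5 erythroid markers were called (limma). Their part in the results for the early genes was not tested, and in bulk cartilage fewer cells of a type and less RNA per cell cannot be told apart.

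**Figure D1:**
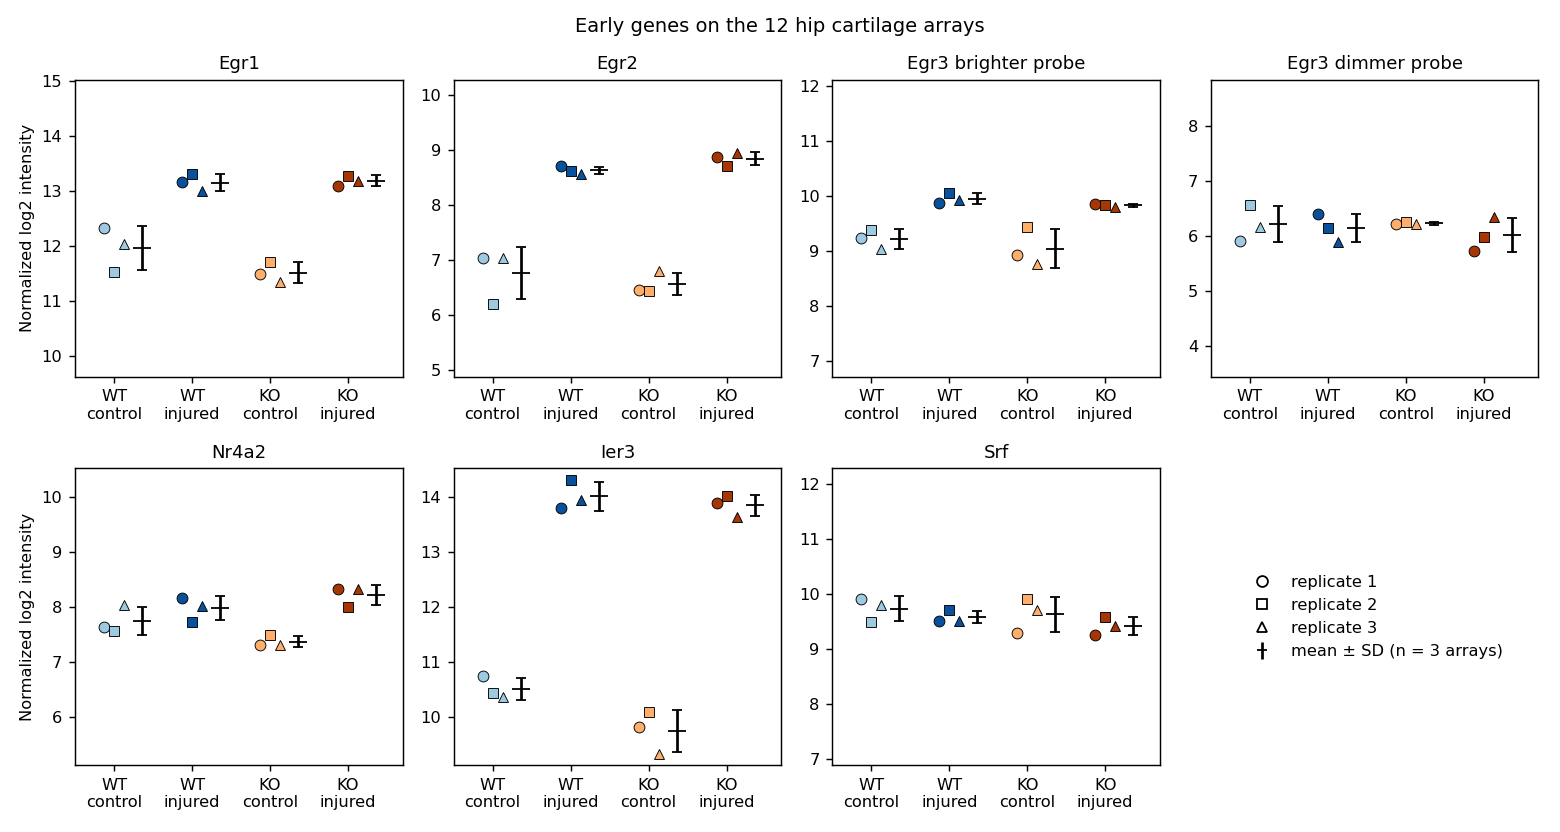
Normalized log2 intensity (y axis) of the 7 probes on each array, by group (x axis). Symbols give the replicate number, and crosses give the mean with SD of 3 arrays. Injured arrays lie above all controls for Egr1, Egr2, the brighter Egr3 probe and Ier3 in both genotypes, while the Srf groups overlap. Such a separation holds for 20.3% of all probes in WT and 24.5% in KO.

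Egr1 encodes a zinc finger factor that binds GC-rich promoter elements and is among the fastest genes to respond to growth factors and mechanical stress. Its log2 levels in WT controls were 12.32, 11.51 and 12.04, and in WT injured samples 13.16, 13.30 and 12.99. In Mapk9 KO they were 11.48, 11.71 and 11.33 in controls and 13.09, 13.28 and 13.19 post injury. Every injured array was therefore above every control array of its genotype, as for 20.3% of all probes in WT and 24.5% in KO, and the WT controls were the most spread out, with an SD of 0.41 against 0.16, 0.19 and 0.09 in WT injured, KO control and KO injured samples. The fold change was 2.28 in WT (95% interval 1.58 to 3.31, limma adjusted p = 0.00558) and 3.19 in KO (2.44 to 4.18, adjusted p = 3.41e-05). Injured minus control differences of samples with the same replicate number were 0.84, 1.79 and 0.95 on the log2 scale in WT and 1.61, 1.57 and 1.85 in KO. The WT call depended on WT control replicate 2, the lowest of its group, since the log2 fold change was 0.97 without it. It was also lost with quantile normalization, at 0.95 after and 0.93 without background correction, and with the methods' t-test, at an adjusted p of 0.0636.

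Egr2 encodes a related factor known for its roles in myelination and T cell tolerance. It was read by a probe whose first 30 bases are shown because this transcript rose most among the EGR genes. They read ggtctgcatgtgtacaggatgccttactat. The WT controls were at 7.03, 6.20 and 7.02 and the WT injured samples at 8.70, 8.61 and 8.56 (log2). The KO controls were at 6.44, 6.44 and 6.79, and the KO injured samples were at 8.87, 8.70 and 8.94. The lowest injured WT level lay 1.53 above the highest WT control, and this gap was 1.91 in KO. A gap of any size was present at 20.3% of all probes in WT and 24.5% in KO. The fold change was 3.66 in WT (95% interval 2.49 to 5.39, limma adjusted p = 0.000579) and 4.86 in KO (3.69 to 6.39, adjusted p = 4.51e-06). On the log2 scale these are 1.87 and 2.28, and quantile normalization without background correction gave smaller changes of 1.203 and 1.496, which were still called.

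Egr3 is induced with its relatives and has roles in muscle spindle development. It had 2 probes, and their first 30 bases are shown because the probes read different stretches and differed in level and in injury change.
Egr3, brighter probe: gaagcggtgtaatgttgccccatttgcctt
Egr3, dimmer probe: agcaaaaggagaagaagtcggagaaagggg
The brighter probe was at 9.23, 9.38 and 9.02 in WT controls and at 9.86, 10.05 and 9.92 in WT injured samples (log2). In KO it was at 8.92, 9.43 and 8.76 in controls and at 9.85, 9.83 and 9.79 post injury. The injured levels lay above all controls in both genotypes, by 0.49 in WT and by 0.36 in KO. Injured levels above all controls were seen at 20.3% of all probes in WT and 24.5% in KO. The log2 fold change was 0.73 (SE 0.20) in WT and 0.79 (SE 0.20) in KO, with limma adjusted p-values of 0.0205 and 0.0103, and neither reached the fold limit. The dimmer probe was at 5.90, 6.55 and 6.16 in WT controls and at 6.39, 6.14 and 5.88 in WT injured samples, and the groups overlapped. In KO its levels were 6.20, 6.25 and 6.21 in controls and 5.71, 5.98 and 6.34 post injury, again overlapping. It was dim, detected on 11 of 12 arrays, and the deposited scale compresses fold changes of dim probes. Its log2 fold changes of -0.07 in WT and -0.21 in KO did not pass the test (limma adjusted p = 0.861 and 0.423).

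Nr4a2, also known as Nurr1, encodes an orphan nuclear receptor that binds DNA without a known hormone ligand and is needed for dopaminergic neurons. Its levels were 7.65, 7.57 and 8.04 in WT controls and 8.17, 7.74 and 8.03 in WT injured samples (log2), so the WT groups overlapped. The KO controls were at 7.31, 7.49 and 7.32 and the KO injured samples at 8.33, 8.01 and 8.34. These KO groups did not overlap, with the injured samples above, as for 24.5% of all probes. The fold change was 1.17 in WT (95% interval 0.838 to 1.64, limma adjusted p = 0.486) and 1.80 in KO (1.38 to 2.36, adjusted p = 0.00306). The KO value passed the adjusted p but not the fold limit. Where only the adjusted p was asked, 4 of the 6 genes were called higher in WT, with Egr3 added, and 5 in KO, with Egr3 and Nr4a2 added. The share of all genes called higher was then 14.1% in WT and 20.5% in KO. The Egr3 value in WT no longer passed without WT control replicate 1 (limma adjusted p = 0.0541), WT injured replicate 2 (0.0862) or WT injured replicate 3 (0.0639). In KO it did not pass with the methods' t-test, at an adjusted p of 0.0591.

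Ier3, also known as IEX-1, encodes a stress-inducible protein that modulates apoptosis and ERK signalling, and it is a known NF-kB target. Its probe began with gggcggctgtctggggtcgcctagtatgta, shown because it recorded the largest change among the 7 probes. The WT controls were at 10.74, 10.44 and 10.37 and the WT injured samples at 13.80, 14.31 and 13.95 (log2). The KO controls were at 9.81, 10.10 and 9.33 and the KO injured samples at 13.89, 14.02 and 13.64. The injured and control levels were far apart in both genotypes, with a log2 fold change of 3.50 (SE 0.22) in WT and 4.10 (SE 0.22) in KO. The limma adjusted p was 5.9e-06 in WT and 3.99e-07 in KO. By size of rise the probe ranked 78 of 21004 in WT and 47 in KO. Leaving out each array in turn gave log2 fold changes from 3.35 to 3.61 in WT and from 3.89 to 4.28 in KO.

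Srf encodes the MADS-box factor on which many early genes and cytoskeletal genes depend. Its levels were 9.92, 9.49 and 9.81 in WT controls and 9.52, 9.71 and 9.52 in WT injured samples (log2). In KO they were 9.29, 9.91 and 9.72 in controls and 9.26, 9.58 and 9.43 post injury. The groups overlapped in both genotypes. The fold change was 0.898 in WT (95% interval 0.658 to 1.23) and 0.862 in KO (0.632 to 1.18), with limma adjusted p-values of 0.621 and 0.443. The intervals leave room for a moderate fall or a small rise.

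**Figure D2:**
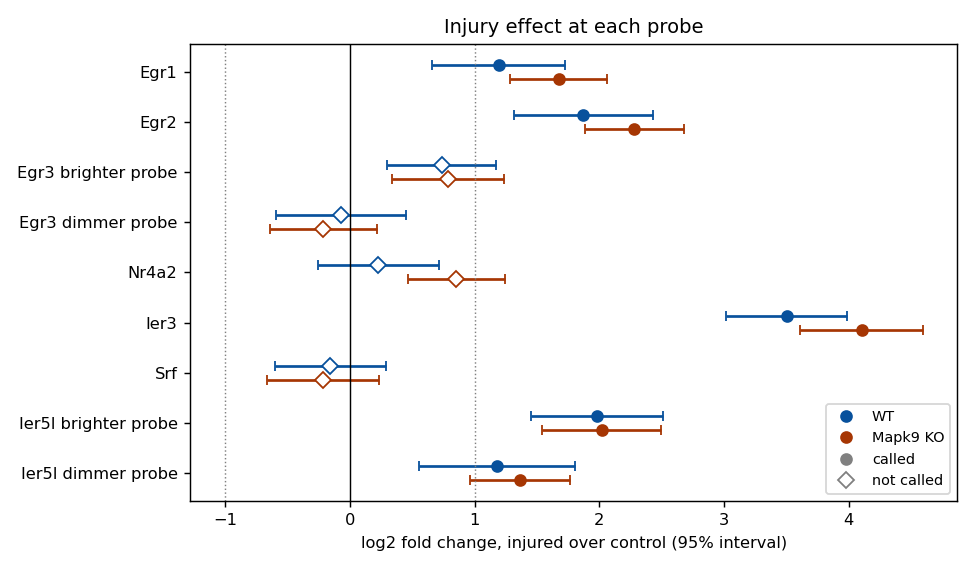
Log2 fold change of injured over control (x axis) with its 95% interval for each probe in WT and Mapk9 KO, including both probes of the relative Ier5l. Filled points are called and open points are not, and dotted lines mark 2-fold. Ier3 stands at 3.50 and 4.10, and Srf and the dimmer Egr3 probe have intervals across 0.

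The remaining 7 probes were not detected on any array. Among their 84 values the lowest detection p was 0.0502, and signals without normalization lay between 95.5 and 187. The lowest signal of a detected probe on each array, which lay between 138 and 234, was above every one of them on its own array. The Nr4a3 gene, which encodes the receptor NOR-1, had 3 probes, and the one nearest to detection (ILMN_1233670) had signals of 153, 126 and 187 in WT controls and 173, 138 and 155 in WT injured samples. In KO its signals were 145, 108 and 144 in controls and 187, 121 and 182 post injury. Its detection p lay between 0.124 and 0.234 in WT controls and between 0.0609 and 0.113 in WT injured samples. In KO the detection p lay between 0.156 and 0.484 in controls and between 0.0502 and 0.185 post injury. The injured p-values were thus lower than the control ones in WT and overlapped them in KO, and no fold change is given since all groups were below the detection limit.

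Nr4a1, or Nur77, a receptor known from T cell and macrophage activation, had signals from 95.5 to 139 over the 12 arrays and detection p-values from 0.454 to 0.999. Ier2, a small nuclear protein of the early response, had signals from 103 to 176 and detection p-values from 0.154 to 0.913. Ier5, linked to heat shock factor regulation, had signals from 102 to 145 and detection p-values from 0.281 to 0.926. The second Srf probe had signals from 110 to 177 and detection p-values from 0.0726 to 0.433. These values say only that the probes gave no signal above the negative controls, and a change of the transcripts was not detectable here. Ier5l, a paralogue of Ier5, was in the table at 2 probes and was called higher at both in both genotypes. Its brighter probe was at 7.74, 7.28 and 8.10 in WT controls and at 9.56, 9.77 and 9.72 in WT injured samples (log2). All injured levels lay above the controls, as for 20.3% of all probes in WT. The log2 fold change was 1.98 (SE 0.24, limma adjusted p = 0.000305). In KO the log2 fold change was 2.02 (SE 0.22), and at the dimmer probe it was 1.18 in WT and 1.37 in KO.

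**Figure D3:**
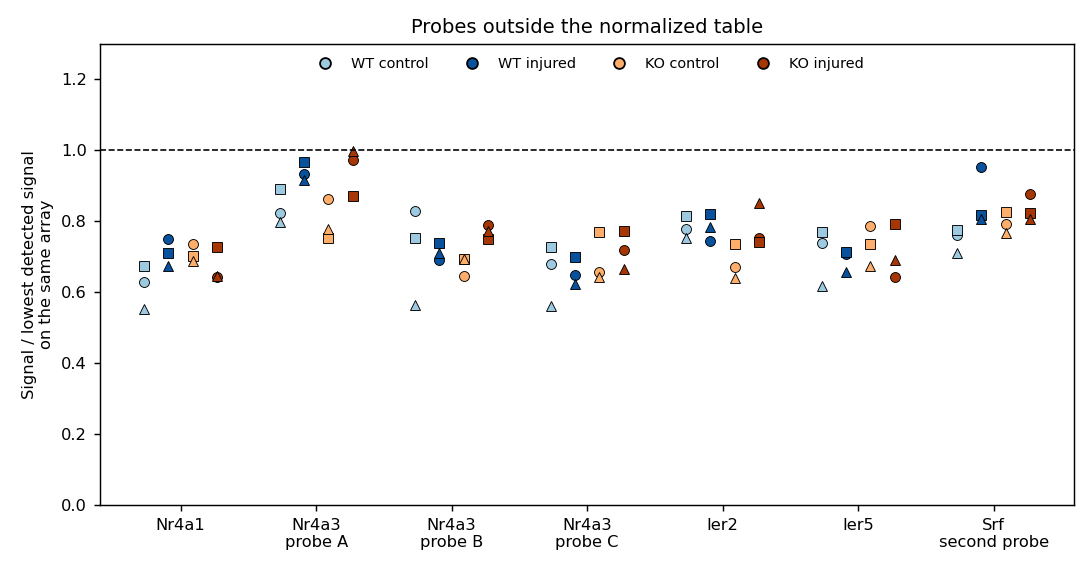
Signal without normalization divided by the lowest signal of a detected probe on the same array (y axis), for the 7 probes outside the normalized table (x axis), with symbols for the replicate number. All 84 points lie under the dashed line at 1, the highest at 0.999 for a Nr4a3 probe.

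The difference between the genotypes was compared next. In the interaction test of the KO injury effect against the WT injury effect, 0 of the 6 genes were called at an adjusted p under 0.05, as was true of all probes (0.0%, limma) in the fit without the replicate block, although 2088 probes (9.94%) had an unadjusted p under 0.05. With the replicate block 112 probes were called, and without WT control replicate 3 the count was 242, with 0 of the 6 genes called in either. Nr4a2 was the one gene of the 6 with an unadjusted p under 0.05, with an injury effect larger in KO by 0.62 on the log2 scale (95% interval 0.06 to 1.19, limma adjusted p = 0.453). The Ier3 effect was larger in KO by 0.60 (-0.07 to 1.27, limma adjusted p = 0.545). For Egr1 the difference was 0.48 (-0.14 to 1.11), for Egr2 0.41 (-0.25 to 1.07) and for the brighter Egr3 probe 0.05 (-0.52 to 0.62). The Srf difference was -0.06 (-0.65 to 0.53). With an array left out, the difference lay between 0.30 and 0.71 for Egr1, 0.27 and 0.68 for Egr2, 0.39 and 0.78 for Ier3 and 0.48 and 0.73 for Nr4a2. The KO minus WT log2 difference was -0.77 in controls and -0.17 in injured samples for Ier3, and -0.45 and 0.03 for Egr1. For Nr4a2 it was -0.38 and 0.24, and for Egr2 -0.20 and 0.21. The interaction intervals of all but Nr4a2 held 0, and they do not show that the genotypes respond alike.

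Genotype was also compared within each condition. In controls, 0 of the 6 genes were called lower in KO, beside 0.11% of all genes, and 0 higher, beside 0.0389%. Ier3 was the only one with an unadjusted limma p under 0.05, which 6.46% of all probes had, and its log2 difference was -0.77 (SE 0.25, limma adjusted p = 0.588). All 3 KO controls were below all 3 WT controls for Ier3 and for Nr4a2, whose difference was -0.38 (SE 0.21, limma adjusted p = 0.86), and this held for 6.57% of all probes. On the same control arrays the muscle markers had the higher mean level in KO given above, and whether this bears on the lower Ier3 and Nr4a2 levels was not tested. Among injured samples, 0 genes were called lower, beside 0.13% of all genes, and 0 higher, beside 0.0778%, and 0 of the 7 probes had an unadjusted limma p under 0.05, against 12.6% of all probes. Egr2 was higher in all KO than in all WT injured samples, as were 7.36% of all probes, and the brighter Egr3 probe was lower in all KO samples, as were 9.47%. Their log2 differences were 0.21 (SE 0.16) and -0.12 (SE 0.15), and the lowest limma adjusted p among the 7 probes was 0.612. The counts behind these shares moved with single arrays and the replicate block. In controls 25 probes were called, and 412 without WT control replicate 3, and in injured samples 38 were called, 188 with the replicate block and 154 without WT injured replicate 1. In each of these, 0 of the 6 genes were called.

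The pathway around these genes was followed through lists of genes known from textbooks, chosen with earlier results of these data known. A gene is counted where any of its probes was called, and medians are taken over the brightest probe of each gene. Of 27 other immediate early genes in the table, 22 were called higher and 0 lower in WT, with a median log2 fold change of 2.13. Over all genes in WT, 8.35% were called higher and 8.24% lower. In Mapk9 KO 23 were called higher and 0 lower, beside 10.6% and 10.4% of all genes, with a median of 2.35. Atf3, a stress-induced repressor, was at least 22.6-fold higher in WT injured samples, because it was not detected on any WT control array (limma adjusted p = 9.97e-07). Arc, a cytoskeletal early gene of neurons, rose 16.5-fold and was detected in all WT controls (limma adjusted p = 1.95e-06). Fosl1, an AP-1 subunit, was at least 8.94-fold higher, again from controls below detection (limma adjusted p = 1.19e-06). The 5 genes not called in WT were Dusp6, Klf2, Mcl1, Myc and Rgs2. The first 4 had log2 fold changes of 0.00, 0.78, 0.57 and 0.79, and both Rgs2 probes were undetected in WT controls. Ier3, at 3.50, lay above the median of this list, while Egr1, Egr2 and Egr3 lay below it.

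The upstream route was followed next. Of 12 genes of the ERK and CREB route, 3 were called higher and 0 lower in each genotype, where 8.35% of all genes in WT and 10.6% in KO were called higher. The median log2 fold change of this list was 0.21 in WT and 0.30 in KO. Crem, whose short form ICER represses CREB targets, had a log2 fold change of 1.48 (SE 0.18) in WT and 1.76 (SE 0.24) in KO, and was called at all 3 of its probes. Rps6ka2, an ERK-activated kinase, was called at 1 probe, undetected in controls and at least 1.49-fold higher in WT injured samples, while its brighter probe had a log2 fold change of 0.14 and was not called. Both SRF cofactors in the table, Elk3 and Myocd, were not called. Elk3 had a log2 fold change of 0.06 in WT and 0.47 in KO.

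Among 5 partners of the EGR and NR4A factors, 1 was called higher and 1 lower in each genotype, beside 8.35% and 8.24% of all genes in WT and 10.6% and 10.4% in KO. Rxra, a retinoid X receptor with which Nr4a1 and Nr4a2 can pair, had a log2 fold change of 1.37 in WT (SE 0.28, limma adjusted p = 0.0063) and was detected on 1 WT control array and on all 3 WT injured arrays. Rxrg, a receptor of the same family, was called lower, and was detected on 2 WT control arrays and on no WT injured array. The corepressors Nab1 and Nab2, which bind EGR proteins, were not called, and Nab2 had a log2 fold change of 0.05 in WT and 0.76 in KO. Of 15 cytoskeletal genes known as SRF targets, 1 was called higher and 1 lower in WT, a share near the 8.35% and 8.24% of all genes, with a median log2 fold change of 0.02. Zyx, a focal adhesion protein, rose by 1.03 in WT and had 0.72 in KO, where it was not called, and Tpm4, a tropomyosin, was called lower at 1 of its 2 probes, with -1.17, while its brighter probe had -0.08. In KO 1 gene of this list was called higher and 3 lower, beside 10.6% and 10.4% of all genes, with a median of -0.07, and Tpm1 (-1.09) and Acta2 (-1.15), a tropomyosin and an actin, were among the lower ones. The higher one was Tln1, an integrin adaptor, undetected in KO controls and at least 1.20-fold higher post injury.

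**Figure D4:**
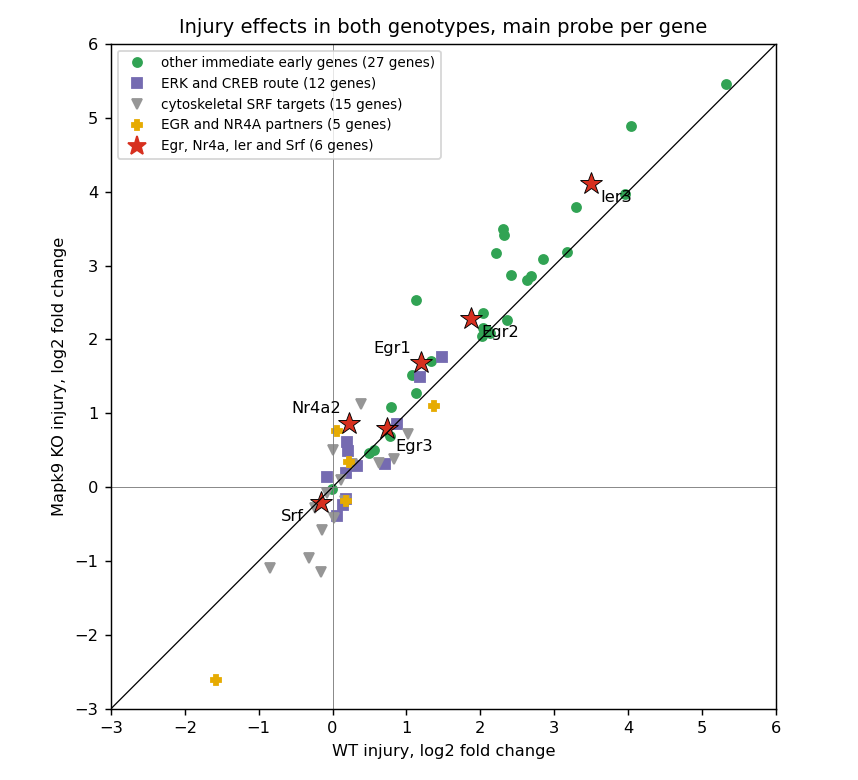
Log2 fold change post injury in WT (x axis) and in Mapk9 KO (y axis) for the brightest probe of each gene, with the line of equal change. The other immediate early genes have a median of 2.13 in WT, Ier3, Egr2 and Egr1 lie among them at 3.50, 1.87 and 1.19, and Srf lies near 0 with most cytoskeletal targets.

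Promoter sequence is shown for 3 of the genes because Ier3 and Egr2 moved together and Srf did not, and the windows hold elements known from early gene control. RefSeq windows (GRCm38.p6) were matched by symbol for 7 of the 10 genes, in 11 windows with 1 per transcription start, and 250 bases upstream of each start were searched on both strands. CArG boxes and NF-kB sites are in capitals.
Ier3, chr17:35821463-35821712, plus strand: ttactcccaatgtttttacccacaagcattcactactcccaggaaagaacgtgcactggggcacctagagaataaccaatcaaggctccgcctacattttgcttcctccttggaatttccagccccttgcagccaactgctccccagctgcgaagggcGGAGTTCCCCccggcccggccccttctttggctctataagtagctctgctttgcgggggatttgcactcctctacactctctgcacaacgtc
Egr2, chr10:67537619-67537868, plus strand: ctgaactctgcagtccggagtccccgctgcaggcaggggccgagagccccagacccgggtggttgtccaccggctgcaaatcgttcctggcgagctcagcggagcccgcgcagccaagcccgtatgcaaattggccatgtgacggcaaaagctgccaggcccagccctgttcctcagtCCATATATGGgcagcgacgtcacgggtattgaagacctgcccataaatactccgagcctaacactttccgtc
Srf, chr17:46556163-46556412, minus strand: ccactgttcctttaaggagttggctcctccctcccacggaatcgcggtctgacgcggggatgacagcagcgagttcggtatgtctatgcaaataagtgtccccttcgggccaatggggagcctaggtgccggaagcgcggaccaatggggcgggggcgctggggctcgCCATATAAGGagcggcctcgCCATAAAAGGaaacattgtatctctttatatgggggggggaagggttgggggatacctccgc
The Ier3 window held 1 NF-kB site, 92 to 83 bases upstream of the start, a motif found in 7.25% of 32851 windows of this length. The Srf window held 2 CArG boxes, 82 to 73 and 62 to 53 bases upstream, a motif found in 1.47% of windows. The printed Egr2 window held 1 CArG box, 72 to 63 bases upstream, which is also within 2 other Egr2 windows, and a further window held another. The first Egr2 start had 2 overlapping NF-kB matches on opposite strands. The EGR site GCGGGGGCG, found in 2.57% of windows, was present in Srf and in Nr4a1, and GCGTGGGCG, found in 0.536%, in no window of these genes. The Srf and Nr4a1 windows had a GC content of 59.6% and 74.4%, against a median of 52.4% over all windows. The shares of windows are not matched for GC content. The windows of Nr4a2, Nr4a3 and Ier5 held none of the motifs searched. No window of the 7 genes held a full CRE (TGACGTCA, 1.55% of windows), an AP-1 site (TGACTCA, 4.46%) or the NR4A element AAAGGTCA (1.34%). These matches are descriptions of the letters and not measurements of binding.

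**Figure D5:**
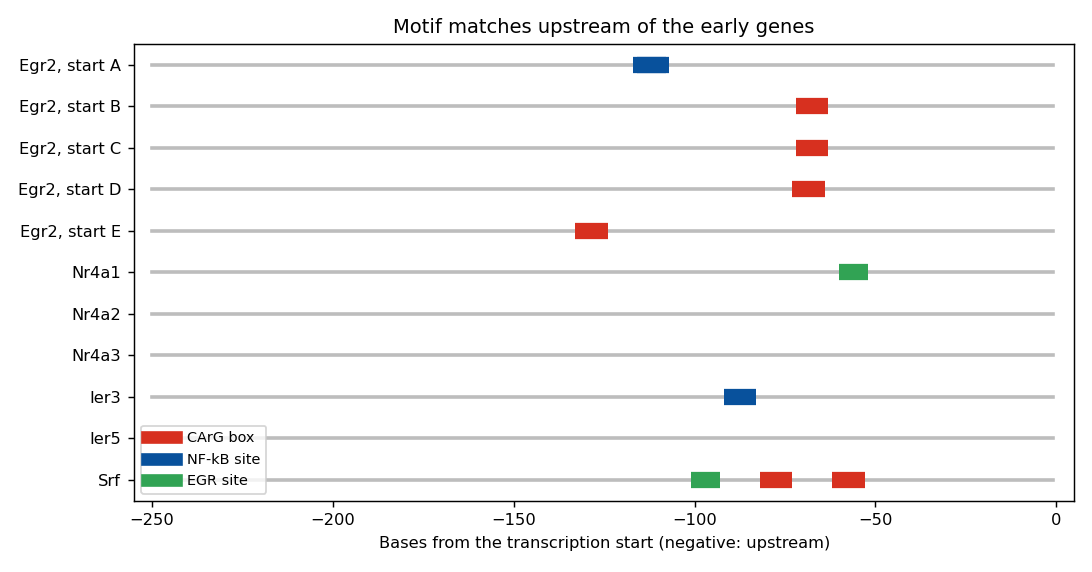
Positions of motif matches in the 250 bases upstream of each transcription start (x axis, bases from the start) for the 7 genes with a RefSeq window, with a line per window. The Srf window holds 2 CArG boxes and 1 EGR site, and Ier3 holds 1 NF-kB site.

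The genes also differed in how closely their levels followed one another over the 12 arrays, which share the injured and control groups, so these correlations are descriptions. Egr1 levels had a Pearson r of 0.97 with Ier3 and of 0.96 with Egr2. Nr4a2 had an r of 0.81 with Egr1 and 0.83 with Egr2. Srf had an r between -0.37 and -0.23 with each of the other 5 genes at their main probes. Over all other symbols, those most like Egr1 were LOC381140 (0.991), Fosb (0.99) and Kcnk5 (0.989). For Egr2 they were Npn3 (0.994), Prss15 (0.992) and Insig1 (0.992). For Egr3 they were Ltap (0.977), Ivns1abp (0.972) and 1500012F01Rik (0.971). For Nr4a2 they were Egln1 (0.969), E030040N07Rik (0.961) and 2700078E11Rik (0.944). Trib3 (0.997), 3830421F03Rik (0.995) and Jun (0.995) were the closest to Ier3. The closest to Srf reached lower values, with Ppl at 0.901, Polr2a at 0.898 and Adck1 at 0.89.

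The precision of these levels was that of 3 arrays per group. The SD of the 7 probes had a median of 0.25 in WT controls, 0.16 in WT injured, 0.20 in KO control and 0.16 in KO injured samples (log2). Over all probes the medians were 0.28, 0.21, 0.23 and 0.21. The single probe with the widest spread was Egr2 in WT controls, at 0.48.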

How the data were processed

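Hip cartilage RNA of 12 mouse samples was hybridized to Illumina BeadChips, and groups and replicate numbers came from the sample labels. The authors deposited bead signal intensities without normalization for 45281 probes, and the deposited file holds a detection p-value for each. They also deposited log2 values for 21004 probes, made by the authors through subtraction of a background taken from negative controls and vsn normalization, whose scale compresses fold changes of dim probes. Versions of R and vsn behind the deposited values are not given in the sources used here.

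Tests used limma 3.58.1 (lmFit, eBayes, R 4.3.3) on the deposited log2 values, were two-sided, and were adjusted by Benjamini-Hochberg across the whole table. A call needed a fold above 2 and an adjusted p under 0.05, and in the interaction the adjusted p alone. Probes outside the table were described by signal and detection p. A gene's main probe was its brightest, and symbols were those of the files. Lower bounds for undetected controls used the lowest detected signal. Motifs were searched with Python 3.11.15. The test was checked on simulated data.

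Alternatives were other background correction and normalization, array medians subtracted, a detection filter, the replicate number as a block, a joint fit of all arrays, the methods' t-test, other thresholds, the brightest probe and each array left out. Deviations of same-numbered samples correlated between 0.153 and 0.390 over 18 pairs and of others between -0.289 and 0.0825 over 36 pairs, so the numbers were treated as pairing the samples, and each comparison was also fitted with the number as a block. Printed values come from the fits without the block unless the block is named. The 10 genes and the lists were chosen with earlier results of these data known. Named are these 10, Mapk9, Ier5l, up to 3 called rises and falls per list, and the 3 symbols most correlated with each. List genes that were not called, and Tpm1, Acta2 and Tln1, were named after their values were seen. A further gene that this rule would name is not reported here. The number of arrays limits the precision. Labels do not say which replicates come from separate animals for KO, so p-values measure the spread between these samples.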

Additional observations from a re-analysis of the deposited data

How the results depend on the processing

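Calls and directions of Egr2 and Ier3 in both genotypes, and of Egr1 in Mapk9 KO, held under every alternative that was run. The WT call of Egr1 was lost under 4 alternatives, as given above, and the count of these genes called in WT lay between 2 and 3 with an array left out. With no fold limit it was 5 in KO. With the replicate block, no call of these genes changed in any comparison, while probes called rose from 38 to 188 for genotype in injured samples and from 0 to 112 for the interaction. Quantile normalization without background correction gave 1140 probes called in WT (3086 as reported), 1756 in KO (3934), 13 for genotype in controls (25) and 22 in injured samples. The methods' t-test gave 1624 in WT and 0 for genotype in either condition, and no fold limit gave 5319 in WT and 8045 in KO. All 12 arrays in the fit gave 44 for genotype in controls. With an array left out the counts lay between 2788 and 3415 in WT, 3905 and 4123 in KO, 17 and 412 for genotype in controls, 23 and 154 in injured samples and 0 and 242 for the interaction; the highest of the genotype count in controls and of the interaction came without WT control replicate 3. The causes were not tested. Signs turned only for effects that were called in no setting. With quantile normalization, the dimmer Egr3 probe had -0.0033 for genotype in controls and Srf 0.00065 in the interaction. With an array left out, the dimmer Egr3 probe lay between -0.22 and 0.10 in WT injury, -0.14 and 0.19 for genotype in controls, -0.29 and 0.019 in injured samples and -0.32 and 0.0073 in the interaction. Srf then lay between -0.24 and 0.072 for genotype in controls and -0.23 and 0.076 in the interaction, Egr1 between -0.047 and 0.11 for genotype in injured samples, and the brighter Egr3 probe between -0.088 and 0.25 in the interaction. Fold changes of probes near background may be too small, since the deposited scale compresses those of dim probes.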
